A study of Mus musculus with 3 samples.

Results

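CD8 T cells were picked out of peripheral blood (PB) leukocytes by the transcripts they held, which gave 265 cells of 12792 barcodes that passed a quality filter. A member had at least 2 unique molecular identifiers (UMIs, each a counted transcript) of the CD3 genes Cd3d, Cd3e and Cd3g together. It also had at least 2 of Cd8a and Cd8b1, none of Cd4 or Cd79a, and at most 1 of F13a1 and Fn1. The naive library gave 194 of them, the library from day 11 (D11) 40 and the library from day 14 (D14) 31. All mice were wild type Balb/C, and engrafted mice were females of 6 to 8 weeks at the time they received BBC2 cells. BBC2 is a cell line grown from a primary leukemia driven by the BCR-FGFR1 fusion kinase, which behaves as a pro-B-cell-like stem cell leukemia/lymphoma (SCLL) and carries GFP. Blood came from naive mice, from mice with intermediate disease at D11 and from mice with late disease at D14, and red cells were lysed and dead cells removed before 10x Genomics 3′ v3 libraries were made. There was 1 library per condition and the number of mice behind each was not given in the sources used here, so differences between conditions could not be set against replicates and are given with no test. The 95% interval of a value stands in brackets after it (Clopper-Pearson for shares, exact Poisson or conditional binomial for sums and ratios), and it covers counting error only.

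CD8 T cells are the cytotoxic arm of the T cell lineage and read peptides shown on MHC class I molecules through an αβ T cell receptor. Those that have not met antigen circulate between blood and lymph nodes, with CCR7 and S1PR1 guiding entry and exit, and keep the transcription factors LEF1, TCF7 and SATB1. After activation, effector and memory cells take on inflammatory chemokines such as CCL5, tissue homing receptors such as CXCR6 and granule proteins that kill target cells.

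The label was checked against its markers. Cd8a, Cd8b1 and Cd3e were part of the rule and are a description only, with Cd8b1 at 776, 714 and 597 CPM (UMIs of a gene scaled to 1e6 in the sum over members) in naive, D11 and D14. Themis, a regulator of T cell receptor signalling that the rule did not use, had UMIs in 193 naive cells, 39 at D11 and all 31 at D14. Its level of 1886, 1746 and 1929 CPM gave a log2 ratio to naive of -0.11 [-0.24 to 0.01] for D11 and of 0.03 [-0.10 to 0.17] for D14. Trac, the constant chain of the αβ receptor, had UMIs in 183, 31 and 19 cells. The 7 NK cell markers summed to 49.3, 18 and 26.1 CPM. The 6 gamma delta T cell markers summed to 5.37, 66 and 11.2 CPM on 11, 22 and 3 UMIs, a D11 log2 ratio of 3.62 [2.51 to 4.81]. Of the 22 UMIs at D11, 15 were Trdc in 3 of the 40 cells, and 1 cell held 86.7% of them. Themis and the αβ receptor genes thus went with the label in most cells of each library, while Trdc had UMIs in 4 naive cells (2.06% [0.565 to 5.19]), 3 D11 cells (7.5% [1.57 to 20.4]) and 1 D14 cell (3.23% [0.0816 to 16.7]).

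Sums over the members held 2047338, 333339 and 267954 UMIs, so that the level given by 3 counts, the floor used here, was 1.47 CPM in naive, 9 CPM at D11 and 11.2 CPM at D14. The median cell had 9884.5, 7742 and 7383 UMIs and 2995, 2619.5 and 2619 genes. At the edge of the rule, exactly 2 Cd8 UMIs were found in 2, 2 and 1 members, and 15, 14 and 4 cells with exactly 1 fell just outside. Against 194, 40 and 31 members, those just outside were relatively more at D11 than in naive. Cells with both Cd8 and Cd4 UMIs, left out by the rule, numbered 18 in naive, 1 at D11 and 0 at D14, and Cd79a removed another 7, 0 and 2. Libraries shared 12, 14 and 18 cell barcodes (naive with D11, naive with D14, and D11 with D14), none of them CD8 T cells. Doublets were kept, and a doublet caller would have taken out 2, 0 and 1 members.

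CD8 T cells were a smaller share of the barcodes in both leukemic libraries. They made up 5.09% [4.41 to 5.84] of 3811 naive barcodes, 0.876% [0.626 to 1.19] of 4567 at D11 and 0.702% [0.478 to 0.995] of 4414 at D14. At D11 this was 5.81-fold lower than in naive blood (ratio 0.172 [0.119 to 0.243]) and at D14 7.25-fold lower (ratio 0.138 [0.0912 to 0.202]). The D11 and D14 shares overlapped in their intervals, and the naive share stood apart from both. Barcodes with over 10% hemoglobin UMIs numbered 93, 1482 and 1179, and their part in the lower share can be measured directly. Over barcodes under 10% hemoglobin the shares were 5.22%, 1.23% and 0.866%, or 0.236 and 0.166 times naive. Other cells of the denominator, such as myeloid cells and any leukemia cells, were not taken out, and their part in the lower share was not tested. The values are shares of a library, and cells per volume of blood were not measured.

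The order of lymphocyte types also differed between libraries. CD4 T cells (CD3 genes and Cd4, no Cd8) went from 18.8% [17.6 to 20.1] of naive barcodes to 2.91% [2.44 to 3.44] and 1.06% [0.783 to 1.41]. NK cells (at least 2 UMIs of Ncr1 and Klre1, no CD3 genes) stood at 4.20% [3.58 to 4.88], 3.94% [3.40 to 4.55] and 1.13% [0.842 to 1.49], and B cells (Cd79a and Ms4a1) at 8.45%, 4.8% and 1.11%. So for each CD4 T cell there were 0.271 [0.230 to 0.318] CD8 T cells in naive blood, 0.301 [0.206 to 0.431] at D11 and 0.660 [0.405 to 1.06] at D14, the last interval lying above that of naive. Per NK cell the values were 1.21 [0.978 to 1.5], 0.222 [0.154 to 0.314] and 0.620 [0.383 to 0.99], lowest at D11. Per B cell they were 0.602 [0.502 to 0.722], 0.183 [0.127 to 0.257] and 0.633 [0.39 to 1.01], also lowest at D11 and with overlapping intervals in naive and D14. The B cell gate set no limit on pro-B cell genes, and whether it took in leukemia cells was not tested. Over all barcodes with at least 2 CD3 UMIs that met the F13a1, Fn1 and Cd79a limits, CD8 T cells were 14.3%, 6.98% and 9.37%, or 0.487 [0.338 to 0.688] and 0.654 [0.432 to 0.958] times naive. That wider rule took in 1354, 573 and 331 barcodes, most of which at D11 and D14 were in neither the CD8 nor the CD4 gate.

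**Figure D1:**
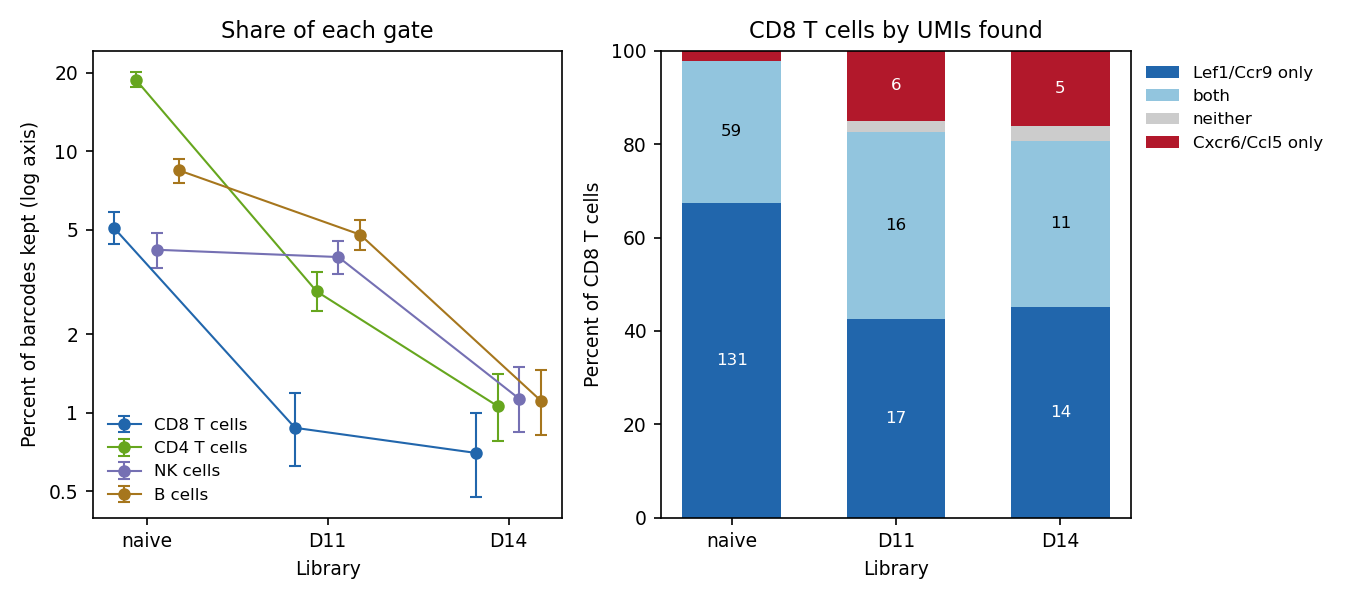
Left, percent of barcodes kept (log axis) in each gate for the naive, D11 and D14 libraries, with points for the share and bars for the Clopper-Pearson 95% interval; the CD8 T cell points lie at 5.09%, 0.876% and 0.702%. Right, percent of CD8 T cells with UMIs of Lef1 or Ccr9 only, of Cxcr6 or Ccl5 only, of both sets or of neither, with cell numbers inside the larger blocks; the Lef1/Ccr9 only block goes from 131 of 194 cells to 17 of 40 and 14 of 31.

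A pair of gene sets was used to set resting cells apart from effector cells. Lef1 is a transcription factor of resting T cells and Ccr9 the receptor for the gut chemokine CCL25, while Cxcr6 is the receptor for CXCL16 and Ccl5 the chemokine RANTES that memory and effector CD8 T cells store as transcript. Since these genes define the split, their levels are a description. Ccl5 stood at 619 CPM in naive, 5106 CPM at D11 and 3840.2 CPM at D14, a log2 ratio to naive of 3.04 [2.94 to 3.15] and then 2.63 [2.51 to 2.75]. Lef1 went from 1642 CPM to 1101 and 982 CPM, which is -0.58 [-0.74 to -0.42] at D11 and then -0.74 [-0.93 to -0.56] on the log2 scale. Ccr9 had 121, 54 and 48.5 CPM and Cxcr6 16.6, 57 and 93.3 CPM. Both leukemic libraries were thus on the same side of naive for each of these 4 genes. B cells, which should lack Ccl5, held 23.9, 4.29 and 1.24 CPM of it, far under the CD8 T cells of the same library.

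Ccr9 and Cxcr6 are neighbours in a chemokine receptor cluster on mouse chromosome 9, where GENCODE M21 (GRCm38) places Ccr9 at chr9:123678439-123784330 and Cxcr6 at chr9:123806475-123811760, both on the plus strand. The Ccr9 span is set by the earliest of several transcript starts, and the RefSeq start used here lies inside it. Cxcr6 lies within the span of Fyco1 (chr9:123789500-123851899), a gene on the opposite strand. The bases before the RefSeq start of each are printed because these neighbours moved in opposite directions, with the window for Ccr9 at chr9:123766961-123767210 and that for Cxcr6 at chr9:123806227-123806476 (RefSeq, GRCm38.p6, plus strand, 5′ to 3′).
Ccr9: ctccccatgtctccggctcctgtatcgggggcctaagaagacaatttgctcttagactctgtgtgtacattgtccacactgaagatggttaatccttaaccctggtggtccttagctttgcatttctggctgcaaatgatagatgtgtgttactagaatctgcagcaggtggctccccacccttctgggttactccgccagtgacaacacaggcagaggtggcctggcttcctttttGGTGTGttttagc
Cxcr6: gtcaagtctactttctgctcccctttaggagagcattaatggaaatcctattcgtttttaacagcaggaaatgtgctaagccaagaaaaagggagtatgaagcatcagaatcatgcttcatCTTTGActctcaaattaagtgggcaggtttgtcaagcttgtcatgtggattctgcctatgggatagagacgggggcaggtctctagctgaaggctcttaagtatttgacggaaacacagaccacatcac
Capitals mark GGTGTG, the core bound by T-box factors such as T-bet and Eomes, in the Ccr9 window and CTTTGA, the core bound by TCF and LEF factors, in the Cxcr6 window. Neither window held the other motif on either strand. Over 32851 promoter windows of this length, 16.3% held GGTGTG or its complement CACACC and 13.8% held CTTTGA or TCAAAG. A match is a description of the letters and not a bound site. Ccl5 was not in the promoter table used and Lef1 has several starts in that table, so neither is printed.

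By these UMIs, 131 of 194 naive cells (67.5% [60.4 to 74.1]) held Lef1 or Ccr9 and no Cxcr6 or Ccl5, against 17 of 40 at D11 (42.5% [27.0 to 59.1]) and 14 of 31 at D14 (45.2% [27.3 to 64.0]). Cells with Cxcr6 or Ccl5 and no Lef1 or Ccr9 numbered 4 (2.06% [0.565 to 5.19]), 6 (15.0% [5.71 to 29.8]) and 5 (16.1% [5.45 to 33.7]). The intervals at D11 and D14 lay above that of naive, each resting on few cells. Cells with both sets made up 30.4%, 40.0% and 35.5%, and 0, 1 and 1 cells held neither. When each cell was thinned to 2000 UMIs (1 D11 cell was shallower and left out), the Cxcr6/Ccl5 only share became 5.15%, 25.6% and 32.3%, in the same order of naive below both leukemic libraries.

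Ccl5 counts differed widely between cells. At D11, 22 cells had 0 Ccl5 UMIs and the other 18 had 17 to 286. At D14, 16 cells had 0, 1 cell had 2 and 14 cells had 20 to 183. In naive, 144 cells were at 0, 26 had 1 to 9 and 24 had 10 to 389. The range from 1 to 9 UMIs thus held 13.4% [8.95 to 19] of naive, 0% [0 to 8.81] of D11 and 3.23% [0.0816 to 16.7] of D14 cells, with intervals apart for naive and D11 and overlapping for naive and D14. Taking at least 10 Ccl5 UMIs as Ccl5-high, a limit chosen after these values were seen, the share that qualified was 12.4% [8.09 to 17.8] in naive, 45.0% [29.3 to 61.5] at D11 and 45.2% [27.3 to 64.0] at D14. Thinned to 2000 UMIs per cell, a Ccl5 UMI was found in 14.9%, 46.2% and 48.4% of CD8 T cells and in 0.625%, 1.40% and 0% of B cells (0 of 48, interval 0 to 7.4%, and up to 6.25% by the floor of 3 counts). Median depths before thinning were 6429, 6026 and 10008 UMIs in those B cells. The median Ccl5-high cell had 10924, 7141.5 and 8807 UMIs and the median of the rest 9754.5, 8758.5 and 7318, so that Ccl5-high cells were the shallower ones at D11 and the deeper ones in the other libraries.

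Lef1 and Ccl5 UMIs were found in the same cells. Lef1 was found in 21 of 24 Ccl5-high naive cells, 12 of 18 at D11 and 9 of 14 at D14, with a median of 7.5, 2.5 and 1 Lef1 UMIs per cell. Lef1 UMIs were also found in 23.3%, 10.5% and 34.7% of B cells and in 70%, 73.3% and 74% of NK cells, with median depths of 6429, 6026 and 10008 UMIs in B cells and 7527.5, 5316 and 6315 in NK cells, so low Lef1 counts in leukemic Ccl5-high cells are not read as resting cells. In the cells with under 10 Ccl5 UMIs, here called Ccl5-low, the median was 17, 12.5 and 13. No Ccr9 UMI was found in Ccl5-high cells of either leukemic library (0 of 18, 0% [0 to 18.5], and 0 of 14, 0% [0 to 23.2], or up to 16.7% and 21.4% by the floor of 3 counts). Ccr9 UMIs were found in 2 of 24 naive Ccl5-high cells, and in 77 of 170, 9 of 22 and 7 of 17 Ccl5-low cells. These are shares of cells with a UMI and set no limit on the share that express Ccr9. Cxcr6 was found in 9 of 24, 7 of 18 and 8 of 14 Ccl5-high cells, and in 16 of 170, 4 of 22 and 1 of 17 Ccl5-low cells. No cell of the naive library held more than 2 UMIs of it. Thinned, Cxcr6 was found in 3.61%, 0% and 9.68% of cells, so at this depth no difference between libraries in the share of Cxcr6 cells was detectable.

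**Figure D2:**
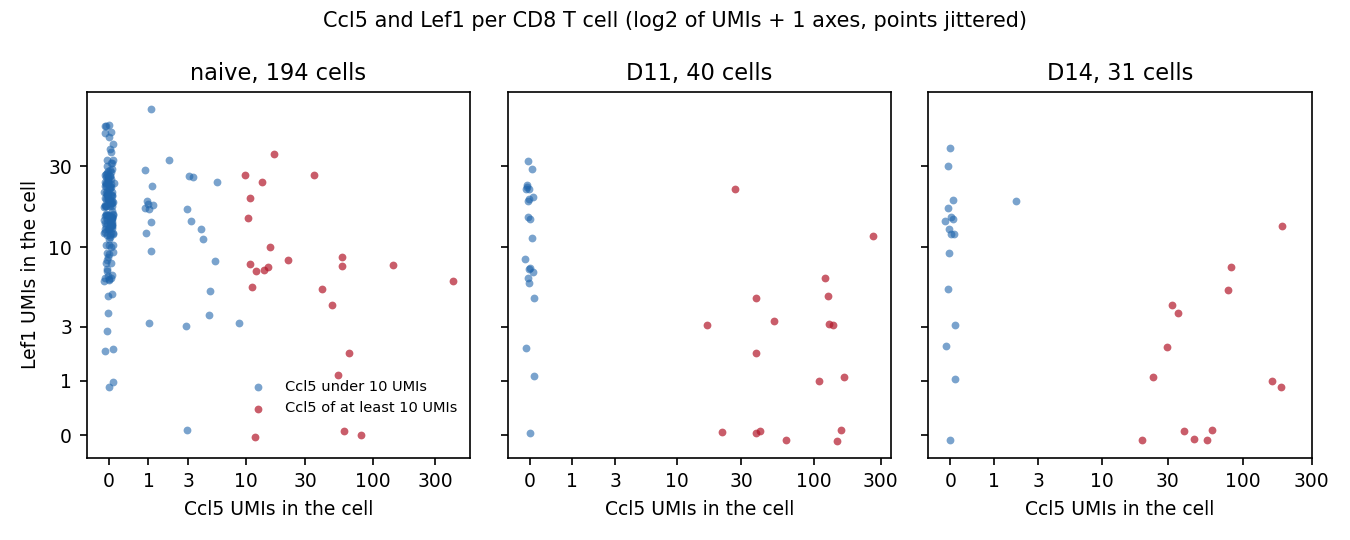
Ccl5 UMIs (horizontal) against Lef1 UMIs (vertical) in each CD8 T cell of the 3 libraries, both on log2 axes of UMIs plus 1 with points jittered, red for at least 10 Ccl5 UMIs and blue for fewer. The naive panel holds 26 of 194 cells between 1 and 9 Ccl5 UMIs, the D11 panel 0 of 40 and the D14 panel 1 of 31.

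Across the transcriptome, 3339 genes had a mean of at least 50 CPM over the 3 libraries and were measured. With 10 CPM added to each value, 72 genes (2.16%) were at least 2-fold higher at D11 than in naive CD8 T cells and 41 (1.23%) at least 2-fold lower. At D14 these were 89 (2.67%) and 39 (1.17%), and between D11 and D14 60 (1.8%) were higher at D14 and 41 (1.23%) lower. With TMM factors the splits became 55 higher and 56 lower at D11 and 68 and 73 at D14, as the median log2 ratio of all measured genes moved from 0.04 to -0.08 at D14. Both leukemic comparisons share the naive library. The limit on the mean lets in genes that are low in naive and high later: 268 of the 3339 genes were under 50 CPM in naive, and they gave 45 of the 72 genes higher at D11 and 51 of the 89 at D14, whose direction the limit helped to fix. Over all measured genes, 49.9% were above naive at D11 and 54.2% at D14 by any amount. Of the genes named by the largest rise to D14, 4 were hemoglobin genes and 1 was S100a9, a neutrophil gene. The other 5 were Ccl5, Gzmb, S100a4, Zeb2 and Osbpl3, the last an oxysterol-binding protein relative with 8.30, 66 and 134 CPM.

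Genes of naive and central T cells were lower as a group. Of 16 such genes 15 were measured, and 3 were higher than naive at D11 and 2 at D14, though only S1pr1 was past 2-fold (1 of 15 at each time, beside 1.23% and 1.17% of all measured genes). At D14 the count was 2 with TMM factors, without ribosomal, mitochondrial and hemoglobin genes, and as a mean of per-cell CPM. The list had a median log2 ratio of -0.44 at D11 and -0.48 at D14, beside 0.00 and 0.04 over all measured genes. S1pr1, the sphingosine 1-phosphate receptor for exit from lymph nodes, had 238 CPM in naive cells, 108 at D11 and 93.3 at D14, so that its log2 ratio was -1.14 [-1.67 to -0.65] and later -1.35 [-1.99 to -0.77]. Ccr7, the receptor for entry into lymph nodes, had 264, 222 and 160 CPM (D14 ratio -0.72 [-1.20 to -0.27] on the log2 scale). S1pr1 lay below naive in both leukemic libraries, while Ccr7 did not separate from naive at D11 (log2 ratio -0.25 [-0.62 to 0.10]). D14 did not separate from D11 in either gene. The transcription factors Satb1 (1596, 948 and 1101 CPM) and Foxp1 (2644, 1944 and 1788 CPM) were lower as well, by -0.54 [-0.71 to -0.36] and -0.56 [-0.70 to -0.43] on the log2 scale at D14. Il7r, the receptor for the survival cytokine IL-7, went the other way, with 833, 969 and 1134.5 CPM and a D14 ratio of 0.45 [0.26 to 0.62], as did the transcription factor Ets1 (0.29 [0.12 to 0.45]). Bach2, a repressor of effector differentiation, stood at 1226, 1020 and 1224 CPM, with a D14 interval that spans 0.

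Effector and memory genes were higher as a group at both times. Of 17 measured among 21, 16 were higher at D11 and at D14, 8 past 2-fold at D11 and 9 at D14, beside 2.16% and 2.67% of all measured genes, and none was past 2-fold lower. Il18rap, Cxcr3, Ccr2 and Anxa2 were under 50 CPM in naive and measured only through a leukemic library, and they gave 3 of the 8 and 4 of the 9. The median log2 ratio was 0.95 at D11 and 1.18 at D14. S100a4, a calcium-binding protein of motile cells, had 54.2 CPM in naive, 318 at D11 and 717 at D14, a log2 ratio of 2.55 [2.15 to 2.95] and later 3.72 [3.38 to 4.07]. It was found in 13 of 194 naive cells, 14 of 40 and 14 of 31. Its relative S100a6 had 77.7, 459 and 455 CPM (D14 ratio 2.55 [2.20 to 2.90]), and B cells of the same libraries held 63.7, 333 and 2863 CPM of S100a6, a move in the same direction whose part in the CD8 values was not tested. Whether leukemia cells were among those B cells was not tested either. Itgb1, the β1 integrin chain, had 182, 519 and 690 CPM, a D14 ratio of 1.93 [1.66 to 2.18], while its partner Itga4, the most abundant gene of the list, had 773, 1104 and 907 CPM (0.23 [0.03 to 0.43]). Il18rap and Il18r1, the chains of the IL-18 receptor, had 44.4, 180 and 127 CPM and 116, 387 and 291 CPM. The giant scaffold gene Ahnak had 370, 726 and 743 CPM. Cxcr3, a receptor for interferon-induced chemokines, was near naive at D11 (28.8 and 36 CPM) and higher at D14 (93.3 CPM, log2 ratio 1.69 [0.96 to 2.39]).

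Genes of cytotoxic granules and effector cytokines were mostly too low to measure, with 6 of 17 at or above the 50 CPM mean. At D11, 3 of the 6 were past 2-fold higher (2.16% of all genes were) and 2 at D14 (2.67%), with median log2 ratios of 1.08 and 0.51. As a mean of per-cell CPM the medians were 1.55 and 1.44, with 4 and 3 of the 6 past 2-fold higher. In cells with under 10 Ccl5 UMIs the direction turned, with summed log2 ratios of -0.21 and -0.33. Of those cells 26 in naive, 0 at D11 and 1 at D14 had 1 to 9 Ccl5 UMIs, and the part of this was not tested. Gzmb and Klrk1 gave 2 of the members past 2-fold higher in the summed CPM at each time. Both were measured only through the leukemic libraries, so that the count is no support for a rise of the list. Gzmb, the protease granzyme B, rested on 8, 23 and 27 UMIs, or 3.91, 69 and 101 CPM, found in 4, 8 and 4 cells. At D14 1 cell held 55.6% of the Gzmb UMIs. Gzma, granzyme A, is a clear case of single cells: 92.8% of its 456 naive UMIs and 59.4% of its 175 at D11 came from 1 cell each, so its 223, 525 and 287 CPM compare few cells. Nkg7, a granule membrane protein, had UMIs in 168, 29 and 25 cells, at 344, 678 and 515 CPM (log2 ratios 0.98 [0.75 to 1.20] and 0.58 [0.31 to 0.85]). Ccl5-high cells held 21.4% of its UMIs in naive, 81% at D11 and 86.2% at D14. The activating receptor gene Klrk1 (NKG2D) had 30.8, 138 and 164 CPM. Ccl4, a chemokine of activated T cells, had 36 of its 37 D11 UMIs in 1 cell.

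**Figure D3:**
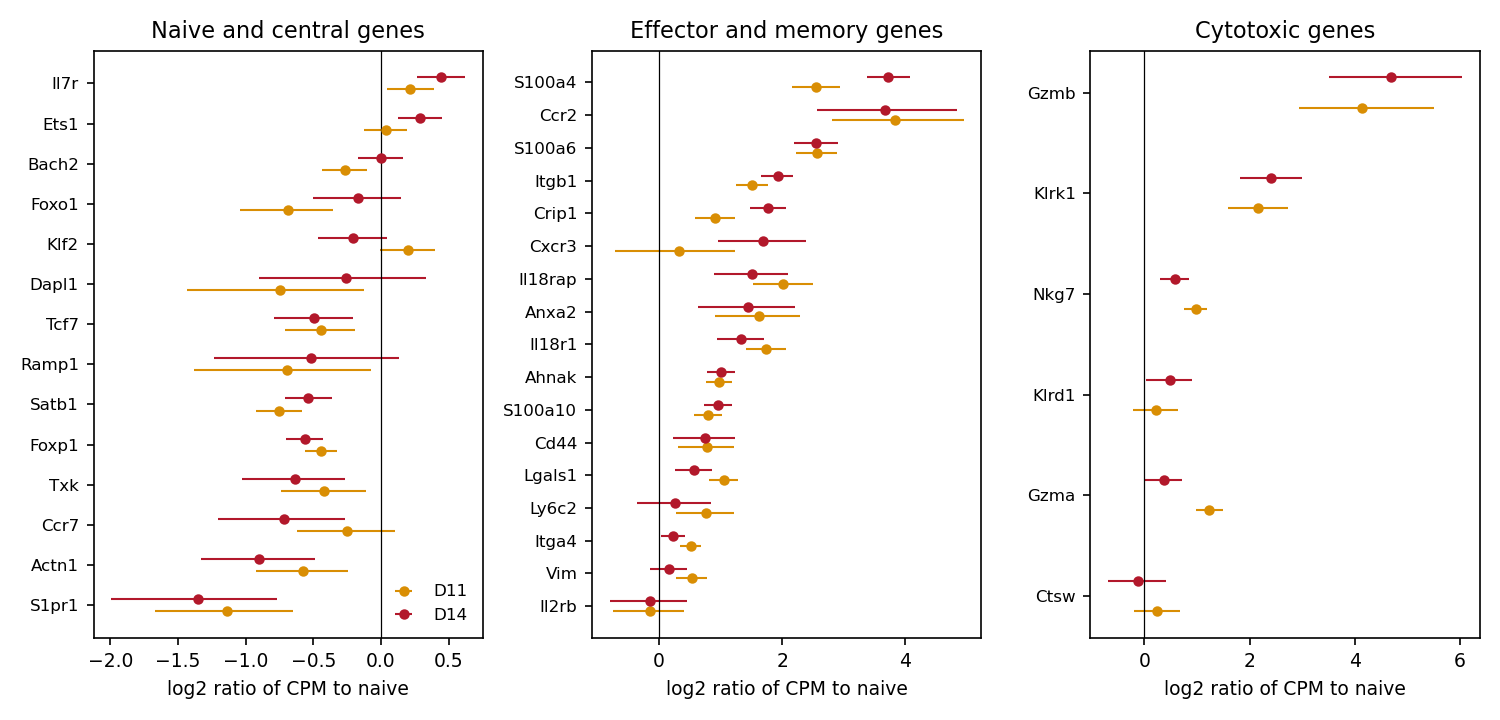
Log2 ratios of CPM to the naive library at D11 (orange) and D14 (red) for measured genes of the naive and central (14 shown), effector and memory, and cytotoxic lists, with exact 95% counting intervals; the panels have different horizontal scales. In the first panel all but Il7r, Ets1 and Klf2 lie at or below 0 at both times, and in the second S100a4, Ccr2 and S100a6 lie farthest above it.

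Transcription factors and inhibitory receptors of effector cells gave few measured genes. Zeb2, a driver of terminal effector cells, was the single factor of 5 measured that was past 2-fold (2.16% of all genes at D11 and 2.67% at D14 were), and it was measured only through the leukemic libraries, with 30.3, 135 and 276 CPM (D14 ratio 3.19 [2.68 to 3.70]), but it was found in 10, 6 and 6 cells and 1 cell held 73.3% of it at D11 and 52.7% at D14. Id2, an inhibitor of E protein factors that is active in effector cells, had 148, 204 and 246 CPM (0.73 [0.33 to 1.12]), and Runx3, a factor that fixes CD8 identity, 254, 222 and 272 CPM. Tbx21 (T-bet), just under the limit for a measured gene, had 14.2, 96 and 37.3 CPM on 29, 32 and 10 UMIs in 16, 10 and 7 cells. Its log2 ratios were 2.76 [1.99 to 3.54] for D11 and 1.40 [0.20 to 2.48] for D14. Tox, tied to exhaustion but also found in resting T cells, was the single measured gene among 10 inhibitory receptors and exhaustion genes, with 706, 765 and 952 CPM and a D14 log2 ratio of 0.43 [0.23 to 0.62]. Pdcd1, the gene of the PD-1 receptor, had 0 UMIs in naive, 0 at D11 and 12 at D14, all in 4 cells that were also Ccl5-high. Against the floor of 3 counts in the naive sum this was 30.6-fold higher, a value that leaves out counting error in the 12 UMIs. Lag3 had 1.95, 6 and 18.7 CPM, Havcr2 1.95, 0 and 3.73 and Tigit 9.77, 15 and 14.9, on 20 UMIs or fewer each. The 9 genes of the list other than Tox, none of them measured, summed to 84.5 CPM in naive, 204 at D11 and 254 at D14 (log2 ratios 1.27 [0.84 to 1.68] and 1.59 [1.16 to 2.0]) on 173, 68 and 68 UMIs, with Ctla4 the most abundant.

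Set against the cells with Lef1 or Ccr9 only, the cells with Cxcr6 or Ccl5 only were higher in most effector and memory genes. The latter numbered 4, 6 and 5, and since cells were picked by these genes they are given as means of the 3 libraries with equal weight and no test. In naive, D11 and D14 the floor of 3 counts in the Cxcr6/Ccl5 cells was 89.6, 73.9 and 79.5 CPM, above the 50 CPM mean that makes a gene measured. A 2-fold call here can therefore rest on few UMIs. Of 3416 genes measured, 429 (12.6%) were at least 2-fold higher in the Cxcr6/Ccl5 cells and 187 (5.47%) at least 2-fold lower. Over the 3339 genes measured in all CD8 T cells, from which the list counts are taken, these shares were 9.31% and 7.46%. Past 2-fold higher were 14 of 17 effector and memory genes, 4 of 6 cytotoxic genes and 2 of 5 effector transcription factors, the last with a median log2 ratio of -0.05, while 10 of 15 naive and central genes were past 2-fold lower. Tox was the single checkpoint gene measured and was not past 2-fold. S100a4 had 1404.6 CPM against 23.9 CPM, S100a6 907 against 33.3, Il18rap 459 against 11.1 and Zeb2 786 against 6.02. In each library these 4 genes had UMIs in the Cxcr6/Ccl5 cells, with 35, 35 and 87 UMIs of S100a4 in naive, D11 and D14. Gzmb (280 CPM against 0) had 1, 7 and 24 UMIs there, and Slc8a1, a sodium and calcium exchanger gene, had all 27 of its UMIs at D14. On the other side, Rapgef4, an exchange factor that responds to cyclic AMP, stood at 348 CPM in the Lef1/Ccr9 cells and Ramp1, a partner chain of the CGRP receptor, at 155 CPM, both with 0 UMIs in the Cxcr6/Ccl5 cells. Hemoglobin genes were also among the lower ones, with Hbb-bs at 525 CPM against 25647 CPM.

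Splitting the cells by Ccl5 placed these differences. This split was made after the Ccl5 counts were seen, and it shares genes with the lists, so the values are a description. In Ccl5-low cells the naive and central list was close to level: its summed level differed from naive by a log2 ratio of -0.12 at D11 and 0.12 at D14, and 0 of 15 members were past 2-fold at D14, where 3.83% of the genes measured in CD8 T cells and 2.94% of those measured in the Ccl5-low cells were 2-fold lower. Ccr7 had 286, 339 and 287 CPM there, Satb1 1710.3, 1380 and 1935 and Foxp1 2836, 2559.5 and 2874. In Ccl5-high cells the same genes were lower than naive at D11 and D14, with 139, 57.8 and 16 CPM of Ccr7, 953, 340 and 152 CPM of Satb1 and 1566.5, 1077 and 551 CPM of Foxp1. Satb1 and Foxp1 were lowest at D14. The floor of 3 counts in the Ccl5-high classes was 9.69, 21.7 and 23.9 CPM. Ccr7 at D14 lay under it, so its order between D11 and D14 cannot be read. The D14 log2 ratio of Satb1 was -2.65 [-3.40 to -1.98] in Ccl5-high cells and 0.18 [-0.01 to 0.36] in Ccl5-low cells. In all, 7 of the 15 members were past 2-fold lower at D14 in Ccl5-high cells, where 6.05% of the genes measured in CD8 T cells and 5.66% of those measured in the Ccl5-high cells were. The Ccl5-high classes were not alike in Ccl5, which defines them, with a median of 20, 89.5 and 47 UMIs, and 11 of the 24 naive members lay nearer to the limit than any leukemic member. The Ccl5-low classes were not alike either, with 1 to 9 Ccl5 UMIs in 26 of 170 naive members, 0 of 22 at D11 and 1 of 17 at D14. Whether these differences hold between cells of the same Ccl5 level was not tested.

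Effector genes gave 2-fold calls in both classes. Of the 17 effector and memory genes, 6 were past 2-fold higher at D14 in Ccl5-high cells and 4 in Ccl5-low cells, where 2 were past 2-fold lower. Of the genes measured in CD8 T cells these shares were 7.52%, 2.1% and 3.83%, and of those measured in each class 8.31%, 2.57% and 2.94%. S100a4 at D14 was almost all in Ccl5-high cells, which held 188 of 192 UMIs and went from 229 to 491 and 1500.4 CPM, while Ccl5-low cells had 23, 195 and 28 CPM. Nkg7 was higher in Ccl5-high cells (488, 1322.5 and 950 CPM) and lower in Ccl5-low cells (319, 221 and 133 CPM, D14 log2 ratio -1.26 [-2.00 to -0.60]). The naive Ccl5-low class held more cells with some Ccl5, and the part of this in the lower Nkg7 was not tested. Ahnak had 756, 1293.5 and 1277 CPM against 301, 323 and 273. Itgb1, in contrast, was higher in both, by 1.24 [0.89 to 1.58] in Ccl5-high and 1.26 [0.76 to 1.73] in Ccl5-low cells on the log2 scale at D14. S100a6 was higher in both as well (1.36 [0.95 to 1.77] and 1.95 [1.12 to 2.71]). Tox stood at 397, 1041 and 1237 CPM in Ccl5-high cells (D14 log2 ratio 1.64 [1.29 to 1.99]) and at 761, 569 and 701 CPM in Ccl5-low cells (-0.12 [-0.43 to 0.18]). At D14 the Ccl5-high sum rests on 14 cells and the Ccl5-low sum on 17.

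**Figure D4:**
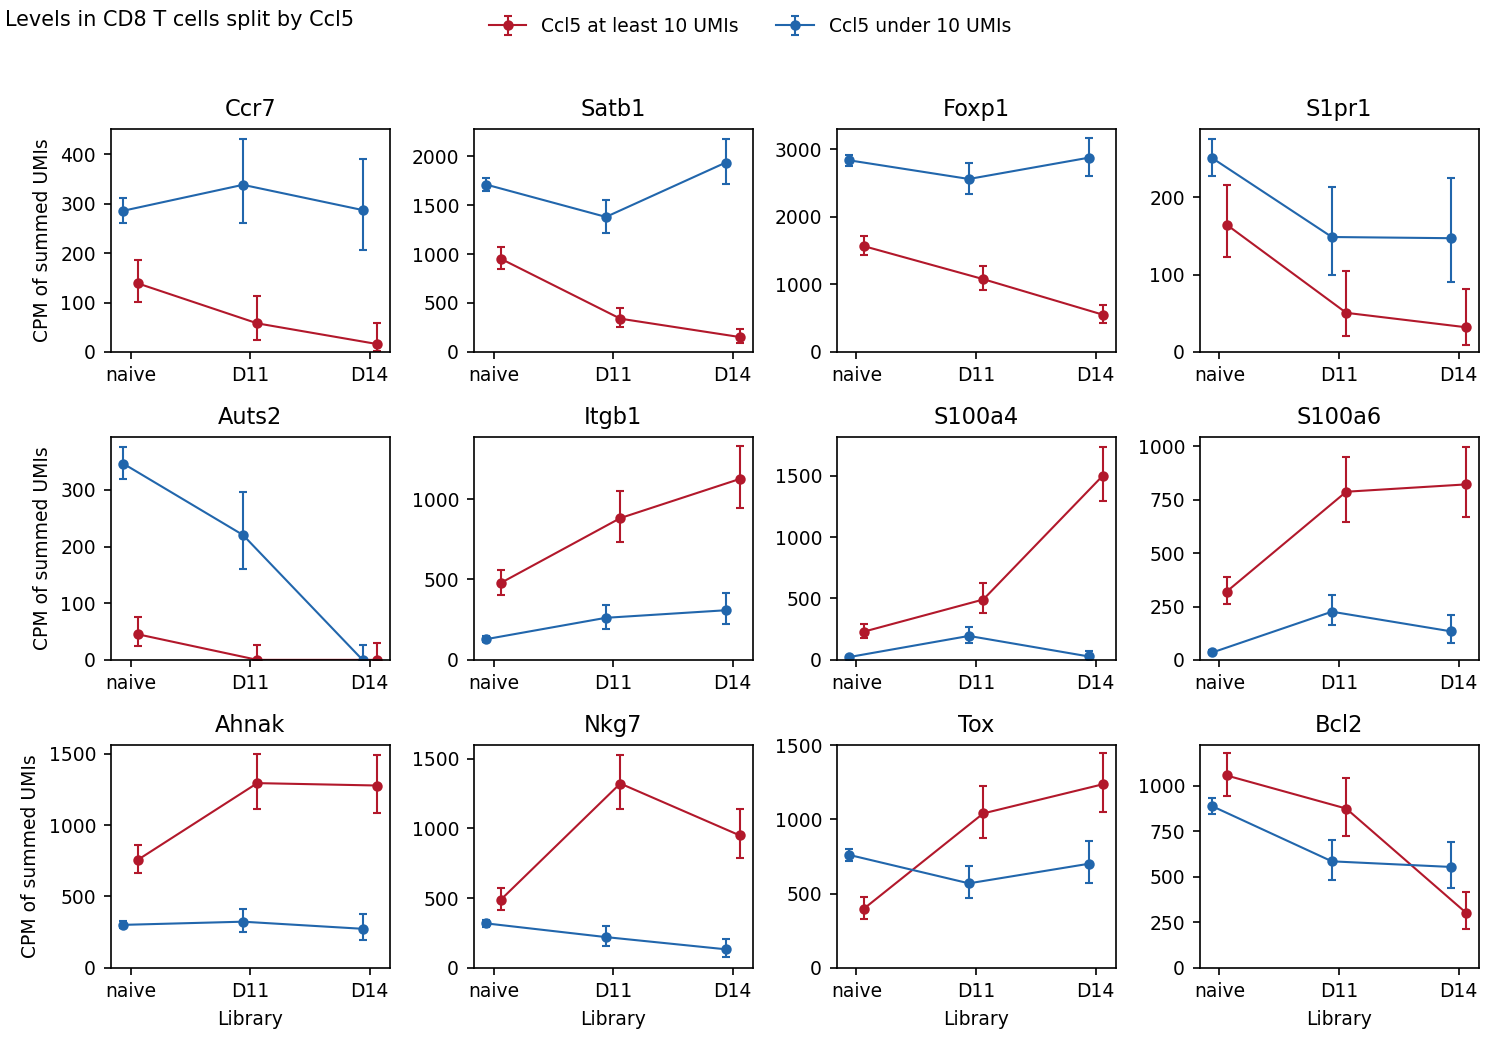
Levels (CPM of summed UMIs) of 12 genes in Ccl5-high (red, at least 10 UMIs) and Ccl5-low (blue) CD8 T cells of the naive, D11 and D14 libraries, with exact Poisson 95% intervals as bars; the genes were chosen after their values were seen. Ccr7, Satb1 and Foxp1 drop in the red class and stay near their naive level in the blue class, Auts2 reaches 0 in both at D14, and Itgb1 is above naive in both.

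Several genes were lower in the leukemic libraries in Ccl5-low cells too. Auts2, a chromatin regulator gene better known from neurons, had 616 UMIs in 64 naive cells, 43 in 6 D11 cells and none in the D14 cells, which makes 301, 129 and 0 CPM, and 1 cell held 48.8% of the D11 UMIs. Against the floor of 3 counts at D14 this was 26.9-fold lower, a value that leaves out counting error in the naive UMIs. Ccl5-low cells held 346, 221 and 0 CPM of it, and Ccl5-high cells held 14 of the naive UMIs, in 2 of 24 cells, beside 0 UMIs in the leukemic ones. CD4 T cells held 129, 80.4 and 9.59 CPM of Auts2 and B cells 0, 1.84 and 0, so the same order was present in both T cell types. Igfbp4, found in resting T cells, had 196, 4 and 0 UMIs, or 8.55-fold lower at D14 against the same floor, again without counting error in the naive UMIs. Its Ccl5-low level was 109, 20.5 and 0 CPM. S1pr1 had 251, 149 and 147 CPM in Ccl5-low cells and 165, 50.6 and 31.9 CPM in Ccl5-high cells. Bcl2, which protects resting T cells from apoptosis, had 913, 705 and 437 CPM (D14 log2 ratio -1.06 [-1.35 to -0.79]), lower in Ccl5-high (1056, 874 and 303 CPM) and Ccl5-low cells (887, 585 and 554 CPM). Other genes named by their fall were Rgs10 (197, 72 and 52.2 CPM, and 211, 118 and 77.1 CPM in Ccl5-low cells), a brake on G protein signalling, Hspe1 (254, 159 and 97 CPM, and 253, 180 and 105 CPM in Ccl5-low cells), a mitochondrial chaperonin, and Calcrl, Gab3, Nsg2 and Pdss2. Ribosomal protein genes made up the rest: Rps28 had 3557, 1242 and 1496.5 CPM and Rpl35 1255, 492 and 522 CPM. Of 84 measured ribosomal protein genes 4 were higher than naive at each time, beside 49.9% and 54.2% of all measured genes. With TMM factors 2 and 1 were, beside 1314 and 1411 of the 3339 measured genes. As a mean of per-cell CPM 13 and 3 were, beside 1676 and 1804. The summed ribosomal protein level went from 211208 CPM to 160923 and 146215 CPM. Rps28 was also lower in CD4 T cells (3340, 1034.5 and 1455 CPM) and NK cells (1452, 633 and 648 CPM), and the cause was not tested.

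Antigen receptor and signalling genes gave few 2-fold calls. All 22 were measured, 0 at D11 and 1 at D14 past 2-fold higher, near the 2.16% and 2.67% of all genes, with medians of -0.14 and 0.05. The exception was Trat1, an adaptor of the receptor complex (51.8, 66 and 123 CPM), which was not past 2-fold with TMM factors. The kinases Lck (286, 270 and 362 CPM) and Fyn (576, 864 and 769 CPM) and the phosphatase Ptprc (2193, 2058 and 2370 CPM) stood near their naive levels or above. Over the whole list, 5 of the 22 were above naive at D11 and 12 at D14, beside 49.9% and 54.2% of all measured genes. Variable segments of the receptor were found in a minority of cells. A Trav gene had UMIs in 33% [26.4 to 40.1] of naive, 2.5% [0.0633 to 13.2] of D11 and 12.9% [3.63 to 29.8] of D14 cells, with the D11 interval below naive and the D14 interval overlapping it. A Trbv gene had UMIs in 56 naive cells, 5 cells at D11 and 4 at D14, over 15 different genes in naive, 5 at D11 and 4 at D14. The most frequent was Trbv13-3 in 8 naive cells, and no Trbv gene was found in more than 1 cell of a leukemic library. Of the constant genes, Trbc2 had UMIs in 187, 38 and 30 cells and Trbc1 in 111, 21 and 18. Trac had UMIs in 94.3% [90.1 to 97.1], 77.5% [61.5 to 89.2] and 61.3% [42.2 to 78.2] of cells, with both leukemic intervals below naive, at 380, 270 and 310 CPM (log2 ratios -0.49 [-0.83 to -0.18] and -0.30 [-0.64 to 0.03]). These shares were not thinned to 1 depth, and the median leukemic cell was shallower.

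Few measured members of the stress and interferon lists were past 2-fold. All 11 measured immediate early genes of 19 were higher than naive at D11 and at D14, beside 49.9% and 54.2% of all measured genes, with medians of 0.31 and 0.51 and none past 2-fold. With TMM factors 10 and 9 of the 11 were higher, beside 1314 and 1411 of the 3339 measured genes. Junb had 124, 231 and 228 CPM (D14 ratio 0.88 [0.45 to 1.29]) and Klf6 161, 273 and 272 CPM. Among 4 measured glucocorticoid-responsive genes Fkbp5, a chaperone induced by steroids, was past 2-fold higher at both times (54.7, 123 and 134 CPM, beside 2.16% and 2.67% of all genes). With TMM factors Fkbp5 was not past 2-fold at D11. Tsc22d3 stood at 175, 276 and 254 CPM, while Sgk1 was below naive at D14 (143, 177 and 85.8 CPM). Of the heat shock chaperones 10 were measured, with 1 past 2-fold higher at each time (Dnajb1, 32.7, 84 and 104 CPM, measured only through the leukemic libraries) and 1 lower at D14 (Hspe1), beside 2.16% and 2.67% of all genes higher and 1.17% lower. The inducible chaperone genes Hspa1a and Hspa1b were under the limit for a measured gene but higher at D14. Hspa1b had 1.95, 15 and 97 CPM on 4, 5 and 26 UMIs in 3, 2 and 11 cells, a D14 log2 ratio of 5.63 [4.11 to 7.61]. Hspa1a had 0, 6 and 41.1 CPM on 0, 2 and 11 UMIs, the last in 5 cells. Against the floor of 3 counts in naive its D14 level was 28-fold higher, a value that leaves out counting error in the 11 UMIs. Whether part of the Hspa1a and Hspa1b UMIs came from other cells was not tested. Of 11 measured interferon-stimulated genes 9 were higher than naive at D11 and 7 at D14, the latter near the 54.2% of all genes. At each time 1 was past 2-fold (2.16% and 2.67% of all genes were), Rsad2 at D11 and the GTPase gene Igtp at D14 (49.3, 90 and 112 CPM). Both were under 50 CPM in naive, Rsad2 was measured only through D11, and with TMM factors none was past 2-fold at D14. Rsad2 (viperin) had 2, 48 and 3 UMIs, with all 48 in 5 cells, so it describes a few D11 cells. Outside the list, and named after their values were seen, the interferon-induced genes Gbp2b (37.6, 210 and 26.1 CPM) and Herc6 (85.5, 213 and 97 CPM) were past 2-fold higher at D11, where 1 cell held 48.6% and 45.1% of their UMIs. All 9 MHC class I presentation genes were measured and none was past 2-fold, with H2-D1 at 1710, 2283 and 1870 CPM. Of the 9, 7 were above naive at D11 and 9 at D14, but with TMM factors 6 and 4 were. TMM factors shift all genes of a library alike, and with them 1314 and 1411 of the 3339 measured genes were above naive.

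Cytokine receptors and cell cycle genes gave few 2-fold calls. Of 13 measured receptor chains 2 were above naive at D11 and 5 at D14, beside 49.9% and 54.2% of all measured genes. Their median log2 ratios were -0.38 and -0.25. Of the 13, 0 at D11 and 1 at D14 were past 2-fold lower (1.23% and 1.17% of all genes were), the latter Il4ra, the IL-4 receptor, at 100, 57 and 41.1 CPM (log2 ratio -1.29 [-2.31 to -0.42]). Il2rb, which passes on IL-2 and IL-15 signals, had 103, 93 and 93.3 CPM and did not separate from naive. Of 14 homing receptors and integrins measured, S1pr1 was past 2-fold lower at both times (1.23% and 1.17% of all genes were) and Cxcr3 higher at D14 (2.67%). The proliferation marker Mki67 had 44, 24 and 8 UMIs in 6, 1 and 4 cells, and Hmgb2, a chromatin protein abundant in dividing cells, 460, 495 and 407 CPM. Of the 4 measured Bcl2 family genes, Bcl2 was the single one past 2-fold, lower at D14, where 1.17% of all genes were.

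Some transcripts of other cells differed between libraries and are given beside these results. The 6 red cell genes summed to 797, 44840.2 and 28419.1 CPM, with Hbb-bs, the most abundant, at 487, 23211 and 15506 CPM. Most came from few cells: 0, 2 and 3 members held over 10% hemoglobin, and Hbb-bs had 80.3% of its D11 and 61% of its D14 UMIs in 1 cell. Without cells over 1% hemoglobin the effector and memory list had summed log2 ratios of 1.12 and 1.17, beside 1.03 and 1.09 with them. The 8 neutrophil genes summed to 80.1, 126 and 504 CPM, led by S100a9 (40.1, 75 and 269 CPM, in 58, 18 and 25 cells) and S100a8, with Lcn2, Camp, Ngp and Mmp8 at 4 UMIs or fewer in each library. The 8 B cell genes summed to 108, 96 and 172 CPM, with Cd79a at 0 by the rule, and the 7 pro-B cell genes to 1.95, 3 and 22.4 CPM, on 4, 1 and 6 UMIs. The 9 monocyte genes summed to 325, 240 and 381 CPM, led by Ctss, the 5 innate-like T cell genes to 17.6, 12.0 and 3.73 CPM, the 6 platelet genes to 9.28, 12.0 and 14.9 CPM and the 6 CD4 and regulatory T cell genes to 162, 102 and 164 CPM. Without cells over 1% neutrophil, red cell and platelet markers the summed effector and memory ratios were also 1.12 and 1.17, and the D14 ratio of the naive and central list was -0.23 in place of -0.29. The part of the other lists in the results was not tested.

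CD4 T cells and NK cells of the same libraries were set beside the CD8 T cells. In CD4 T cells 14 of the 17 effector and memory genes were past 2-fold higher at D14, where 3.77% of the genes measured in CD8 T cells and 5.13% of those measured in CD4 T cells were, with S100a4 at 170, 1053 and 988 CPM and Itgb1 at a log2 ratio of 1.46 [1.29 to 1.62]. Of the 15 naive and central genes, 3 were past 2-fold lower in CD4 T cells (1.5% of the genes measured in CD8 T cells and 1.46% of those measured in CD4 T cells were) and 2 in NK cells (0.988% and, of those measured in NK cells, 0.83%). Past 2-fold higher in NK cells were 0 of the 17 effector and memory genes (1.17% and 1.47%). The naive and central list had a median of -0.80 in CD4 T cells and 0.00 in NK cells at D14, beside -0.48 in CD8 T cells. Ccl5 was low in CD4 T cells (73.1, 79.4 and 273 CPM) and high in NK cells of every library (11146, 8780.0 and 9587 CPM), where the D14 log2 ratio to naive was -0.22 [-0.27 to -0.16]. These values share libraries, and no difference between cell types was tested.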

How the data were processed

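The deposited files were gene by barcode matrices of UMI counts, 1 per library, which the authors made with Cell Ranger against mm10. The labels name version 7.1.0 and the matrix headers 5.0.1, and whether intronic reads were counted is not given in the sources used here. A barcode was kept if it had 200 genes or more and no more than 10% of its UMIs on mitochondrial genes. Member counts were summed per library and given as CPM. A gene whose mean over the 3 libraries reached 50 CPM was called measured, and 2-fold calls used log2(CPM + 10). With 1 library per condition no test was run. Python 3.11.15, scipy 1.17.1, scanpy 1.11.5 (doublets) and edgeR 4.0.16 (TMM factors only) were used, and scripts were tested on simulated data. The named genes were those of the rule, the 4 highest and the most changed of each list, and the 10 largest rises and falls to D14 with the same direction by D11 and at least 100 CPM in either library. Other genes were named after their values were seen, as members of lists or as single cases, among them Igfbp4, Pdcd1, Rsad2, Klrk1, Tbx21, Gbp2b, Herc6 and the heat shock genes Hspa1a and Hspa1b. The members and lists were chosen with earlier results of these data known. The values of 1 gene of the naive and central list are not reported here, though it is part of the counts of that list.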

Additional observations from a re-analysis of the deposited data

How the results depend on the processing

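Of 252 values of the 17 main results under alternatives, 193 stayed close to their main value, which here means within its 95% counting interval or, for a number of genes, within 1.5 times it. Others are given here, with the cause not tested. The CD8 share was 0.251 times naive at D11 without barcodes over 1% hemoglobin (0.172 in the main analysis), 0.202 at D14 under a stricter quality filter of 500 genes and 5% mitochondrial UMIs (0.138), and 0.487 and 0.654 over the CD3 gate. Counted by at least 10 Ccl5 UMIs, a limit added after the data were seen, the effector share was 12.4%, 45.0% and 45.2%. Genes higher and lower at D11 (72 and 41) became 154 and 113 at a mean of 20 CPM, 32 and 20 at 100 CPM and 113 and 69 with libraries thinned to 267954 UMIs. At D14 (89 and 39) they were 204 and 160 and then 40 and 18 at these means, and the lower count was 67 when thinned, 67 with 1 CPM added, 73 with TMM factors and 95 without ribosomal, mitochondrial and hemoglobin genes.

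Summed log2 ratios of the naive and central list (-0.34 at D11, -0.29 at D14) were -0.45 and -0.43 with TMM factors, -0.41 at D11 with 1 CD3 UMI, and at D14 -0.36 without ribosomal, mitochondrial and hemoglobin genes, -0.21 under the stricter quality filter and -0.23 without cells over 1% hemoglobin or over 1% neutrophil, red cell and platelet markers. Those of the effector and memory list (1.03 and 1.09) were 0.92 and 0.96 with TMM factors, 1.17 and 1.17 with Cd8a and Cd8b1 each required, 0.96 at D14 with 1 Cd8 UMI, and 1.12 and 1.17 without either kind of cell. The cytotoxic list (1.13 and 0.78) had 1.0 at D11 with Cd8a and Cd8b1 each required, 0.99 at D14 with 1 Cd8 UMI and 1.29 and 1.33 as a mean over cells.

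The split by Ccl5, also added later, moved the most. In Ccl5-high cells 286 genes were higher and 169 lower at D11 and 295 and 201 at D14, with 0.64 and 0.68 for the effector and memory list, 0.76 and 0.21 for the cytotoxic list and -0.65 at D14 for the naive list. In Ccl5-low cells 34 were higher and 78 lower at D11 and 94 lower at D14, with -0.12 and 0.12 for the naive list, 0.48 and 0.29 for the effector and memory list and -0.21 and -0.33 for the cytotoxic list, which turned the direction of the latter. There the D14 ratios of Cxcr6 (-0.72), Ahnak (-0.14) and Zeb2 (-0.0938) were reversed too, as was that of Ccl5 (-1.502). The sign for Ccl5 is fixed by choosing cells low in it. At D14, Ccl5-high cells held 24 of 25 Cxcr6 UMIs and 72 of 74 Zeb2 UMIs. What was left of both in D14 Ccl5-low cells lay under the floor of that class, 21 CPM, so neither reversal can be read. Among 1624 values of 86 named genes 1495 lay within the main value's 95% counting interval and 125 outside it. The other 4 were the reversed ratios of Cxcr6, Ahnak, Zeb2 and Ccl5. No paired analysis was possible because each condition has 1 library. With 40 and 31 cells, the leukemic sums cannot show genes under 9 and 11.2 CPM, and single cells can set a gene's level.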
